A study of Mus musculus with 3 samples.

Results

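The immunoglobulin variable segments are the short coding units from which B cells assemble the antigen-binding end of their antibodies: Ighv segments for the heavy chain on mouse chromosome 12 and Igkv segments for the kappa light chain on chromosome 6. They were taken as every gene symbol in the count tables that starts with Ighv or Igkv, which gave 345 of 32285 features, 185 of them Ighv entries and 160 Igkv entries. The study sequenced single peripheral blood mononuclear cells (PBMC) of C57BL/6 mice in 3 libraries, 1 for each group. The aged+AA library came from aged mice that received AA, ascorbic acid by the series title, for 1 month, the aged library from aged mice that received phosphate-buffered saline (PBS) for 1 month, and the young library from young mice that received PBS for 1 month. The series title speaks of middle-aged mice; the number of mice behind a library is not given in the sources used here. With 1 library per group no difference has a replicate check, so values below stand without tests. Each interval covers counting error only. It is an exact 95% binomial or Poisson interval, or for evenness a 95% interval from the variance of the index.

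In a developing B cell, a cut-and-join process called V(D)J recombination brings 1 variable segment of the heavy chain locus next to a diversity and a joining segment, and 1 variable segment of a light chain locus next to a joining segment. A mature B cell therefore transcribes mainly a single Ighv and a single light chain segment, each spliced to a constant gene (Ighm and Ighd in naive cells, Igha or the Ighg genes after class switching, Igkc for kappa). Plasma cells, which secrete antibody, hold far more of these transcripts than resting B cells. In mice, B-1 cells, a self-renewing lineage found mainly in the body cavities, are known for a restricted repertoire in which Ighv11-2 with Igkv14-126 and Ighv12-3 with Igkv4-91 recur.

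Cells counted here had at least 2 UMIs of Cd79a, a subunit of the B-cell receptor, or at least 5 UMIs of Jchain, which links secreted IgA and IgM, and no UMI of Cd3d, Cd3e or Cd3g. A UMI is 1 captured transcript. These rules kept 4899 of 11016 cells of the aged+AA library, 4261 of 9758 of the aged library and 2405 of 8767 of the young library. Cells with under 5 Jchain UMIs are called the B gate (4880 aged+AA, 4214 aged and 2403 young cells, with a median of 3560, 3144 and 3419 UMIs) and the others the plasma gate (19 aged+AA, 47 aged and 2 young cells). The Cd3 rule had removed 733 aged+AA, 368 aged and 251 young cells. Pairs of libraries shared 2 to 6 gate barcodes, and no shared barcode held an Igkv UMI in both libraries. The libraries were not alike in other RNA: 5 red-cell marker genes took 36297 CPM (the UMIs of a gene scaled to all UMIs of the cells, the usual CPM unit) in aged+AA, 116734 CPM in aged and 44609 CPM in young B gate cells, and 4 neutrophil marker genes 377, 2163 and 6.72 CPM. Ribosomal genes took 29.1%, 25.4% and 29.9% of B gate UMIs, and mitochondrial genes 4.69%, 3.25% and 5.61%.

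Of the 160 Igkv entries, 100 are annotated as functional genes and 60 as pseudogenes, in 20 families; of the 185 Ighv entries, 115 are genes and 70 pseudogenes, in 16 families. The following sequences are the 3′ ends of the segments the results turn on, from 60 bases before the codon of the conserved framework 3 cysteine to the last germline base, where joining takes place (GENCODE M21 transcripts, build GRCm38, given 5′ to 3′ on the strand of the gene). Capitals mark the cysteine codon. The first 6 are the kappa segments that lead the B gate or the plasma gate.
Igkv12-44: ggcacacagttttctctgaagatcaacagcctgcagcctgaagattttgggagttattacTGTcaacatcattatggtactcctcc
Igkv12-46: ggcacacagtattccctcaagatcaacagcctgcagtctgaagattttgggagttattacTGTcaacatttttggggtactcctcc
Igkv1-117: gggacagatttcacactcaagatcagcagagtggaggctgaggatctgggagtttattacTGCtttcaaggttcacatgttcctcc
Igkv1-110: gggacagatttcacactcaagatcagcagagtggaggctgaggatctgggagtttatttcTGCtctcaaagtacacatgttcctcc
Igkv1-135: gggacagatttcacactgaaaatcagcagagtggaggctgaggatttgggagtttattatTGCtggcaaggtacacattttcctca
Igkv6-15: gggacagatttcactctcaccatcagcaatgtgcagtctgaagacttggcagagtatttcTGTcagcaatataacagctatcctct

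They lie on chromosome 6 at chr6:69814631-69814716 (Igkv12-44, minus strand), chr6:69764523-69764608 (Igkv12-46, minus), chr6:68121742-68121827 (Igkv1-117, plus), chr6:68271182-68271267 (Igkv1-110, plus), chr6:67610423-67610508 (Igkv1-135, plus) and chr6:70406469-70406554 (Igkv6-15, minus). All lie in the exon that codes for the variable domain. Igkv1-110 and Igkv1-117 share 62 of the 63 bases up to and including the cysteine codon, and Igkv12-44 and Igkv12-46 share 59. Next are the pair known from mouse B-1 cells and 2 of the leading heavy chain segments.
Igkv14-126: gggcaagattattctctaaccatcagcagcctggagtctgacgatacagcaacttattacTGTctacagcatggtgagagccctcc
Ighv11-2: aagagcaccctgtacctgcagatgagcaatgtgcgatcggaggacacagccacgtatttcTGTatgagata
Ighv5-4: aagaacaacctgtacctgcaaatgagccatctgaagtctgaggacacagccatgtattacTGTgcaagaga
Ighv1-26: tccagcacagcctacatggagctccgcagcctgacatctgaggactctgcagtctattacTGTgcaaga

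Igkv14-126 lies at chr6:67896557-67896642 (plus strand), Ighv11-2 at chr12:114048241-114048311, Ighv5-4 at chr12:113597446-113597516 and Ighv1-26 at chr12:114788372-114788440 (all 3 on the minus strand). Ighv1-26 is identical to Ighv1-34 over its last 63 bases up to the cysteine codon, and Ighv11-2 differs from Ighv11-1 at 1 of 63. How the counting treated reads that fit several segments is not given in the sources used here. Counts of such near copies, also Ighv1-72 with Ighv1-53, Ighv9-3 with Ighv9-2, Ighv1-15 with Ighv1-23, Ighv1-80 with Ighv1-84, Igkv5-43 with Igkv5-45, and Ighv1-52 with Ighv1-55 and Ighv1-74, which are identical over the same 63 bases, are therefore uncertain.

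UMIs of variable segments were sparse in resting B cells of these 10x Genomics 3′ libraries. How far such counts fall short of the transcripts that carry a segment was not tested. In the B gate, 23.6% of aged+AA cells (22.4 to 24.8%), 26.9% of aged cells (25.6 to 28.3%) and 37.3% of young cells (35.3 to 39.3%) held at least 1 Igkv UMI. At least 1 Ighv UMI was found in 18.1% of aged+AA cells (17.0 to 19.2%), 20.4% of aged cells (19.2 to 21.7%) and 31.8% of young cells (29.9 to 33.7%). Among T cells of the same libraries, which should lack these transcripts and were deeper (median 5441, 4727 and 5002 UMIs), the Igkv share was 0.294%, 0.232% and 0.111%, and the Ighv share 0.294%, 0.279% and 0.111%, so B gate detection lay far above that in T cells. Myeloid cells of the aged library showed 0.343% for Igkv and 0.412% for Ighv. Both kinds of cells were taken with no Cd79a UMI, which selects against cells that carry B-cell RNA. In barcodes taken as free RNA, Igkv took 0.226, 0.332 and 0.227 UMIs per 10000 in the aged+AA, aged and young libraries, and Ighv 0.166, 0.147 and 0.0853. Most positive cells held a single UMI: 915 of 1151 Igkv-positive aged+AA cells, 829 of 1134 aged cells and 611 of 896 young cells, and no B gate cell held more than 10.

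Both loci gave the highest level in the young library and the lowest in the aged+AA library. Summed over the B gate, Igkv segments took 0.742 UMIs per 10000 in aged+AA cells (1460 UMIs), 0.941 in aged cells (1577 UMIs) and 1.37 in young cells (1325 UMIs). Ighv segments took 0.531 (1045 UMIs), 0.626 (1049 UMIs) and 1.04 per 10000 (1009 UMIs). The aged over young ratio of the level was 0.687 for Igkv and 0.60 for Ighv, the aged+AA over aged ratio 0.788 and 0.848, and the aged+AA over young ratio 0.541 and 0.509. After each cell was thinned to 1000 UMIs, Igkv was detected in 7.01% of aged+AA, 9.58% of aged and 12.5% of young cells, and Ighv in 5.36%, 6.55% and 11.4% (15, 18 and 4 shallower cells were left out), the same order as before thinning.

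**Figure D1:**
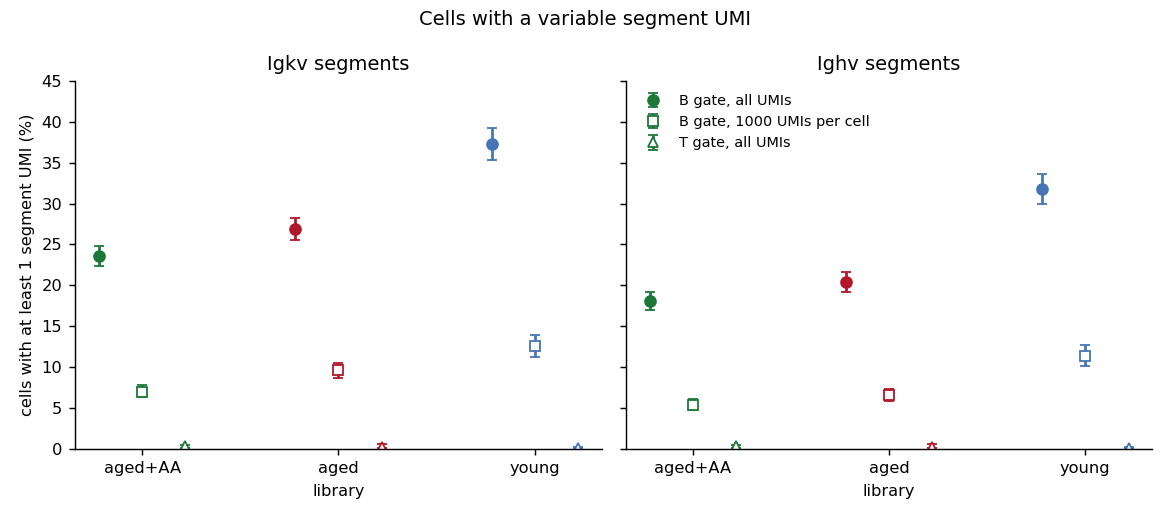
Share of cells with at least 1 Igkv or Ighv UMI, in percent with exact 95% binomial intervals, for B gate cells at full depth and thinned to 1000 UMIs and for T cells, in the aged+AA, aged and young libraries. B gate shares run from 18.1% to 37.3% at full depth and are highest in the young library, while T cells stay below 0.3%.

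The constant genes did not follow this order. Igkc, the kappa constant gene, stood at 10959 CPM in aged+AA B gate cells, 8602 CPM in aged cells and 10223 CPM in young cells. Ighm stood at 2591, 2908 and 2572 CPM. Set against them, there were 6.77 Igkv UMIs for every 1000 Igkc UMIs in aged+AA cells, 10.9 in aged cells and 13.4 in young cells, and 15.7, 16.6 and 31.8 Ighv UMIs for every 1000 Ighm and Ighd UMIs. Variable segments outside the kappa and heavy chain loci moved the same way between the young library and the others: Iglv segments of the lambda light chain stood at 4.72, 5.89 and 8.80 for every 1000 Iglc UMIs, and Trbv segments of the T-cell receptor at 0.253, 0.296 and 0.479 UMIs per 10000 in T cells. Trav segments took 0.349, 0.325 and 0.491 per 10000 in T cells. The part of a difference between whole libraries in the Igkv and Ighv values was not tested. Among the 4687 aged+AA, 2787 aged and 2353 young B gate cells with under 1% haemoglobin UMIs, the aged over young ratio of the level was 0.722 for Igkv and 0.590 for Ighv, and the aged+AA over aged ratio 0.738 and 0.854.

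Of the 160 Igkv entries, 114 were seen at least once in the B gate, 78 of them in all 3 libraries, 15 in 2 and 21 in 1. Of the 185 Ighv entries, 114 were seen, 78 in all 3 libraries, 18 in 2 and 18 in 1. Among functional genes, 4 of 100 Igkv (Igkv20-101-2, Igkv4-62, Igkv8-34 and Igkv8-26) and 15 of 115 Ighv gave no UMI. Pseudogenes gave 35 of 4362 Igkv UMIs (0.802%) and 39 of 3103 Ighv UMIs (1.26%), although they make up 60 of 160 and 70 of 185 entries. Use was uneven: a functional Igkv gene had a median of 17 UMIs over the 3 libraries and the leading one 310, and a functional Ighv gene a median of 15 and the leading one 130.

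Igkv12-44 and Igkv1-117 led the kappa locus in all 3 libraries. Igkv12-44 had 99 UMIs in aged+AA, 112 in aged and 99 in young B gate cells, which is 6.78%, 7.10% and 7.47% of the Igkv UMIs. Igkv1-117 had 79, 109 and 101 UMIs, or 5.41%, 6.91% and 7.62%. The share of Igkv12-44 thus differed little between libraries, while Igkv1-117 was lowest in aged+AA. Igkv1-135 had 57 UMIs in aged+AA (3.90%), 77 in aged (4.88%) and 92 in young cells (6.94%). The opposite order was seen for Igkv12-46, with 74 (5.07%), 59 (3.74%) and 39 UMIs (2.94%), and for Igkv6-15, with 71 (4.86%), 60 (3.80%) and 39 UMIs (2.94%). Between those extremes, Igkv17-127 had 58, 71 and 43 UMIs, Igkv17-121 had 60, 52 and 45, Igkv1-110 had 54, 62 and 45, and Igkv9-120 had 32, 44 and 42.

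Heavy chain use was spread over more segments. Ighv5-4, which lies close to the diversity genes, had 58 UMIs in aged+AA cells (5.55% of Ighv UMIs), 42 in aged cells (4.0%) and 30 in young cells (2.97%), and led the aged+AA and aged libraries. Ighv1-64 led the young library with 40 UMIs, against 32 in aged+AA and 22 in aged cells. Ighv1-26 had 33, 34 and 36 UMIs, an almost even count. Ighv3-6 had 29 in aged+AA, 22 in aged and 39 in young cells, and Ighv6-3 had 18, 25 and 35, both highest in the young library. Ighv1-15 had 34, 23 and 16 UMIs, Ighv5-17 36, 28 and 19, and Ighv2-2 32, 32 and 16, all lowest in the young library. Ighv1-75, with 17, 31 and 14 UMIs, and Ighv6-6, with 13, 23 and 13, were highest in the aged library, and Ighv1-54, with 22, 9 and 10, in aged+AA.
Ighv9-3 (30, 35 and 24 UMIs), Ighv1-82 (30, 28 and 25), Ighv8-8 (28, 25 and 26), Ighv4-1 (18, 17 and 20), Ighv1-80 (18, 14 and 25) and Ighv1-72 (22, 21 and 13) completed the leading set. Among the rest, Ighv7-1 had 7, 4 and 7 UMIs, Ighv5-2, close to the diversity genes like Ighv5-4, only 3, 6 and 6, and Igkv7-33 1, 0 and 0.

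**Figure D2:**
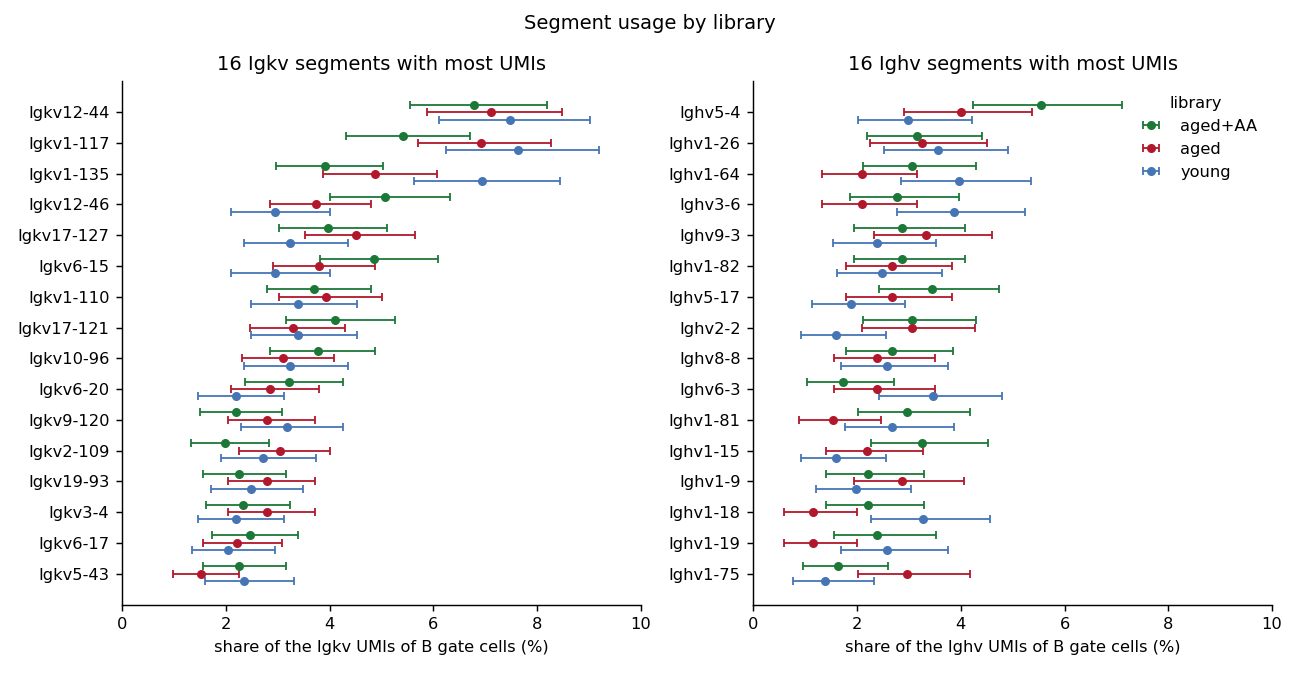
Share of the UMIs of a locus, in percent with exact 95% binomial intervals, for the 16 Igkv and the 16 Ighv segments with most UMIs in the B gate, in the aged+AA, aged and young libraries. Igkv12-44 and Igkv1-117 lead in every library, and most intervals of the 3 libraries overlap.

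To keep single cells with several transcripts from deciding the usage, a cell was assigned to a segment where that segment had at least 2 UMIs and at least 75% of the UMIs of its locus. This assigned 151 aged+AA, 187 aged and 174 young B gate cells to an Igkv segment, and 105, 120 and 157 to an Ighv segment. Igkv12-46 was assigned in 14 of 151 aged+AA cells (9.27%), 8 of 187 aged cells (4.28%) and 6 of 174 young cells (3.45%). Igkv12-44 was assigned in 14, 15 and 17 cells, Igkv1-117 in 13, 23 and 13, and Igkv1-135 in 5, 10 and 14. Among the 4 Igkv segments with at least 20 assigned cells over the aged+AA and aged libraries, Igkv12-46 was past 2-fold (ratio 2.17, 0.848 to 5.96), and among 3 for aged+AA over young it was again past 2-fold (ratio 2.69, 0.971 to 8.54); both intervals include 1. No segment of the 4 for aged over young was past 2-fold, and no Ighv segment reached 20 assigned cells in any comparison.

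The level in CPM allowed a wider count, which carries the lower summed level of both loci with it. For aged+AA over aged, 0 of 39 Igkv segments were at least 2-fold higher and 3 lower, and 2 of 45 Ighv segments higher and 10 lower; among all 11875 genes with at least 20 UMIs the background was 1.73% higher and 4.92% lower. For aged over young, 1 of 38 Igkv was higher and 9 lower, and 1 of 42 Ighv higher and 17 lower, against 8.63% higher and 2.75% lower among all 11450 genes. For aged+AA over young, 0 of 36 Igkv were higher and 14 lower, and 0 of 38 Ighv higher and 18 lower, against 3.74% and 2.29% of 11377 genes. The median log2 ratio of the Igkv segments was -0.38 (aged+AA over aged), -0.40 (aged over young) and -0.92 (aged+AA over young), and of the Ighv segments -0.15, -0.73 and -0.91, while over all genes it was -0.05, 0.20 and 0.15. The last 2 comparisons share the young library, and the first 2 share the aged library. The segments past 2-fold in level were thus mostly lower, at a share above the background in all 3 comparisons, though with only 3 Igkv segments for aged+AA over aged. In that comparison the 2 of 45 higher Ighv segments were also a larger share than the 1.73% of the background. The background genes were not matched to the segments in UMIs. Genes near the limit of 20 UMIs pass 2-fold more easily by counting error, and its part here was not tested.

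Within a locus the 3 libraries used much the same segments. Summing for each Igkv segment the smaller of the 2 shares of UMIs, 85.0% of usage was common to aged+AA and aged cells, 84.4% to aged and young cells, and 82.8% to aged+AA and young cells. For Ighv the common share was 79.4%, 76.1% and 79.8%. Across 106 to 109 segments, which are not independent replicates and share library depth, Pearson's r of the UMI shares was 0.953, 0.953 and 0.916 for Igkv and 0.852, 0.774 and 0.835 for Ighv.

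Evenness was described by the effective number of segments, the number of equally used segments that would give the same chance of drawing 1 segment from a pair of cells (unbiased inverse Simpson index). For Igkv it was 23.2 over assigned aged+AA cells, 26.9 over aged cells and 27.7 over young cells. For Ighv it was 33.5, 56.2 and 51.7, lowest in aged+AA, where the 10 most used segments held 51.4% of assigned cells, against 40.0% in aged and 40.8% in young cells. The order did not hold for Igkv once every UMI was used: the effective number was then 35.9 in aged+AA, 34.4 in aged and 32.9 in young cells, and for Ighv 50.01, 58.2 and 55.2. Counting a cell from 1 UMI on, which keeps 1066, 1016 and 785 cells for Igkv and 856, 834 and 732 for Ighv, gave 38.5, 38.6 and 36.7 for Igkv and 52.3, 58.5 and 55.9 for Ighv. A lower Ighv evenness in aged+AA cells was thus present under these 3 ways of counting, and no order of Igkv evenness was. The 3 ways count the same UMIs again. Intervals of aged+AA and young cells overlapped in all 3 (24.6 to 52.3 and 40.4 to 71.8 over assigned cells). Those of aged+AA and aged cells overlapped over assigned cells (aged 41.5 to 87.2) and from 1 UMI on (48.4 to 56.9 and 54.1 to 63.7). Over UMIs they nearly touched (46.4 to 54.3 and 54.3 to 62.7). In 151 assigned cells, 43 Igkv segments were expected in aged+AA, 48.5 in aged and 49.4 in young cells, and in 105 cells 40, 52.5 and 51.3 Ighv segments.

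Use ran along both loci with gaps. When the 160 Igkv entries were cut into 5 equal runs by their order from the joining genes, the nearest run held 29.5% of Igkv UMIs in aged+AA, 26.8% in aged and 24.3% in young cells, and the farthest run 28.6%, 32.3% and 35.2%. The middle run, with 15 functional genes among its 32 entries, held only 2.74%, 1.84% and 3.02%. The nearest run was thus highest in aged+AA and the farthest highest in young cells. Of the 160 entries, 85 are read from the strand opposite to Igkc, so that they join by inversion and not by deletion of the DNA between, and they held 50.8%, 48.9% and 47.3% of the UMIs. In the heavy chain locus, the 37 entries nearest to the joining genes held 23.7% of Ighv UMIs in aged+AA, 24.7% in aged and 18.1% in young cells, and the 37 farthest 26.7%, 24.2% and 23.5%. Across the functional genes of a locus, rank correlations of UMIs with the distance to the joining genes were 0.012 for 100 Igkv and 0.038 for 115 Ighv genes, and with transcript length 0.266 and 0.269, as a description.

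**Figure D3:**
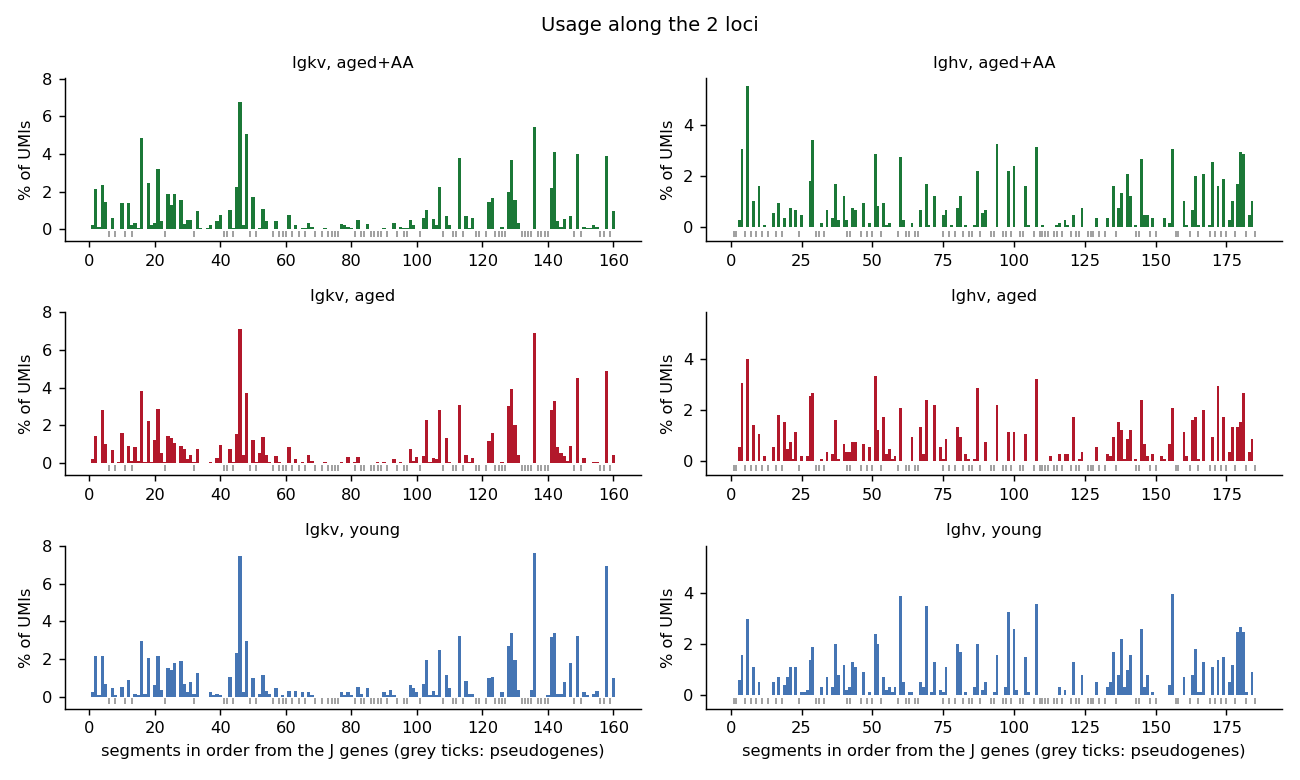
Share of the UMIs of a locus, in percent, for each segment in its order from the joining genes, in the aged+AA, aged and young B gates, with grey ticks at pseudogenes. Both ends of the kappa locus carry most Igkv UMIs, with a stretch of low use in the middle.

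By family, Ighv1, the largest heavy chain family with 93 entries, held 53.1% of Ighv UMIs in aged+AA, 47.4% in aged and 51.4% in young cells. Ighv5 held 14.4%, 14.0% and 9.61%, and Ighv2 6.51%, 8.39% and 5.65%. Among kappa families, Igkv1 held 14.6% in aged+AA, 17.1% in aged and 19.4% in young cells, and Igkv6 16.1%, 13.3% and 12.2%, in opposite orders. Igkv12 held 15.1%, 14.7% and 14.4%, and Igkv4, the largest with 33 entries, only 6.44%, 6.34% and 6.49%, close to equal in the 3 libraries.

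Transcripts within a cell came mostly from 1 segment. Of B gate cells with exactly 2 Igkv UMIs, both came from the same segment in 117 of 181 aged+AA cells (64.6%), 143 of 215 aged cells (66.5%) and 126 of 192 young cells (65.6%). For Ighv this held in 88 of 109 (80.7%), 97 of 119 (81.5%) and 119 of 141 cells (84.4%). Between UMIs of different cells the same segment would be drawn in 2.43%, 2.42% and 2.53% of Igkv pairs and 1.86%, 1.71% and 1.79% of Ighv pairs. A second Igkv segment with at least 2 UMIs was seen in 0 of 236 aged+AA, 5 of 305 aged and 8 of 285 young cells with at least 2 Igkv UMIs. The interval of the first share runs to 1.55%. For Ighv such a second segment was seen in 0 of 132, 0 of 147 and 1 of 188 cells. Most of these cells held exactly 2 UMIs of the locus and could not show it, so the shares do not measure how rare it was. In the plasma gate, with more UMIs per cell, a second Igkv segment was seen in 4 of 16 aged+AA, 11 of 41 aged and 1 of 2 young cells. For Ighv it was seen there in 2 of 15, 3 of 36 and 0 of 1. The share of pairs from 2 segments was larger for Igkv than for Ighv in each library.

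Cells that express lambda light chain were split off where the lambda constant genes Iglc1, Iglc2 and Iglc3 together exceeded Igkc. Among these, 31 of 335 aged+AA (9.25%), 62 of 454 aged (13.7%) and 28 of 165 young cells (17.0%) held an Igkv UMI, against 24.6%, 28.5% and 38.8% of kappa cells. An Igkv segment was assigned in 2, 1 and 0 lambda cells, against 149, 186 and 174 kappa cells. Ighv segments were found in 24.8%, 21.8% and 44.2% of lambda cells and in 17.6%, 20.3% and 30.8% of kappa cells. Igkv detection was thus lower in lambda than in kappa cells in all 3 libraries, and Ighv detection was not.

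Class-switched cells were few in the B gate. Igha was the leading heavy chain constant gene in 13 aged+AA, 30 aged and 1 young cell, and an Ighg gene in 44, 29 and 5. Igkv UMIs were found in 2 of 13 and 13 of 30 Igha cells of the aged+AA and aged libraries, over 2 and 8 segments, and in 10 of 44 and 10 of 29 Ighg cells, over 9 and 12 segments. The level of Igha was 36.8 CPM in aged+AA, 47.7 in aged and 3.00 in young B gate cells, of Jchain 8.74, 9.55 and 0.310, of Ighg2b 28.6, 13.2 and 6.31, of Ighg2c 3.40, 5.01 and 0.103 and of Ighg3 7.32, 13.2 and 4.55. The B gate leaves out cells with at least 5 Jchain UMIs, so its Jchain level is limited by the gate. Ighg1 had 49 UMIs in aged+AA, 54 in aged and 0 in young cells. A list of 16 genes held the constant genes, Jchain and the lambda variable segments Iglv1, Iglv2 and Iglv3, and no joining segment. Of these 16, 15 had enough UMIs, none of them 2-fold lower in any comparison. At least 2-fold higher were 6 in aged against young cells, 5 in aged+AA against young cells and 1, Ighg2b, in aged+AA against aged cells, beside 8.63%, 3.74% and 1.73% of all genes; a count of 1 does not set the list apart from that background. The 2 aged libraries, which had more Igha, thus had lower summed Ighv and Igkv levels than the young one.

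Of 10 transcription factors that act on immunoglobulin genes or the B lineage, 1 was past 2-fold: Pou2f1, an octamer-binding factor, was at 59.4 CPM in aged cells, against 28.0 CPM in young cells. This count of 1 is close to the 8.63% of all genes 2-fold higher in that comparison. Pou2f2, another octamer-binding factor, stood at 296 CPM in aged+AA, 334 in aged and 171 in young cells, its cofactor Pou2af1 at 154, 216 and 154, Spib, an Ets factor, at 77.4, 133.5 and 70.0, and Pax5, a B-lineage factor that binds immunoglobulin loci, at 230, 313 and 179. The receptor genes Cd79a, Cd79b and Ms4a1 were within 2-fold in every comparison. Cells entered the B gate by their Cd79a UMIs, so the Cd79a level is partly set by the gate. Ung, a uracil glycosylase of DNA repair, stood at 9.76 CPM in aged+AA, 7.04 CPM in aged and 7.86 CPM in young cells, also within 2-fold. Rag1, a subunit of the recombinase, had 2, 5 and 1 UMIs, and Dntt, which adds bases at the joints, had 0 in each library.

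In the plasma gate the segments were abundant. Igkv UMIs per cell had a median of 9 in aged+AA (0 to 78), 18 in aged (0 to 87) and 26.5 in young cells (9 and 44). Ighv UMIs per cell had a median of 5 (0 to 26), 4 (0 to 37) and 3.5 (0 and 7). Igha led in 18 of 19, 45 of 47 and 2 of 2 cells, but not all of these cells clustered as plasma cells. In clusters made without immunoglobulin genes, 50 of the 68 cells (17 aged+AA, 32 aged and 1 young) lay in a cluster with all 9 plasma markers raised more than 2-fold, 10 (2, 7 and 1) in the B-1-like cluster described later, and 8, all aged, in a cluster led by neutrophil genes.

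**Figure D4:**
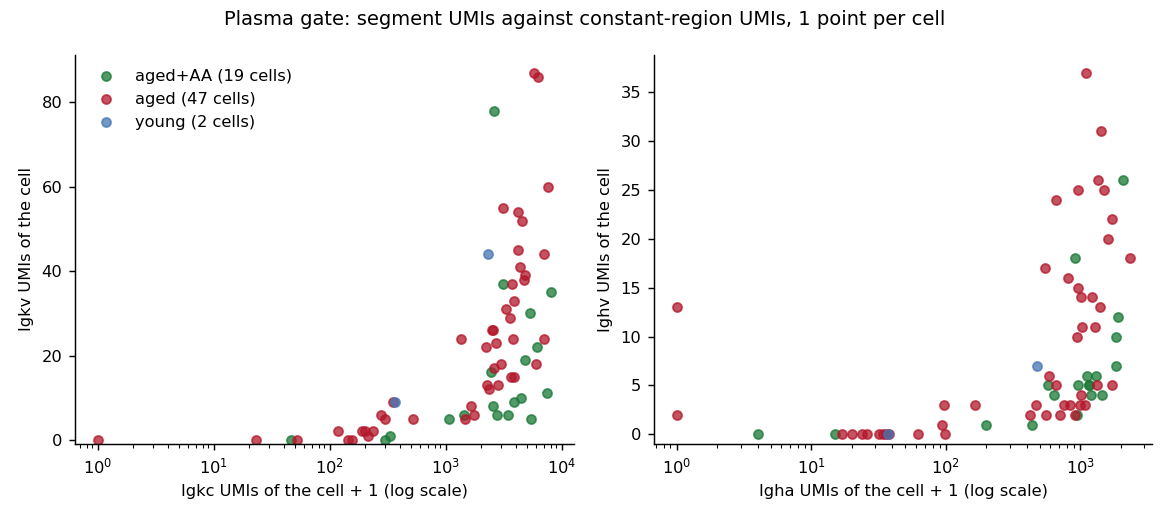
Igkv UMIs against Igkc UMIs and Ighv UMIs against Igha UMIs for each plasma gate cell of the aged+AA, aged and young libraries, with constant gene UMIs on a log axis. Igkv reaches 87 UMIs in a cell with 5736 Igkc UMIs, and cells with few Igkc or Igha UMIs hold few or no segment UMIs, apart from 1 aged cell led by an Ighg gene, with 13 Ighv UMIs and 0 Igha UMIs.

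Plasma gate cells mostly differed from each other in their segments. An Igkv segment was assigned in 14 aged+AA cells, all 14 different, and in 37 aged cells, over 20 segments. An Ighv segment was assigned in 14 aged+AA cells over 11 segments and in 32 aged cells over 24. Both chains were assigned in 12 aged+AA cells with 12 different pairs and in 28 aged cells with 26 pairs. The 2 repeated pairs were Ighv1-52, among the near copies named above, with Igkv6-15 (12 and 60 UMIs of those segments in 1 cell, 3 and 18 in the other) and Ighv9-2 with Igkv15-103 (14 and 24 UMIs in 1 cell, 10 and 55 in the other). Without sequences of the joints, cells of 1 clone and separate cells that use the same segments cannot be told apart. In the young library, 1 cell held Ighv1-26 (7 UMIs) with Igkv15-103 (38 UMIs) and the other Igkv5-43 (8 UMIs) with no Ighv UMI.

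Igkv6-15 was the leading kappa segment of the aged plasma gate, with 6 assigned cells of 6 to 87 UMIs each, and the Ighv segment with most UMIs beside it was Ighv1-80, Ighv1-52 (both cells above), Ighv14-3, Ighv5-2 or Ighv8-12. It was assigned in 0 of the 14 aged+AA cells. Igkv1-110 was also assigned in 6 aged cells, but 4 of those belong to a group of 7 aged cells that stood apart. These 7 had 6 to 46 Jchain UMIs and 16 to 97 Igha UMIs, no Ighv UMI, 26.1% to 40.8% of their UMIs from haemoglobin genes and 16 to 94 UMIs of S100a8, a neutrophil gene that had at most 4 UMIs in any plasma gate cell with under 10% haemoglobin, and 6 of the 7 held 1 to 4 UMIs of Igkv1-110. They lay in the cluster led by neutrophil genes. Without the 11 aged cells with at least 10% haemoglobin UMIs, 36 aged cells were left, Igkv1-110 was assigned in 1 and Igkv6-15 in 5 of 29, and the effective number of Igkv segments was 21.4, against 17.1 with all 37. Beside the 7, these 11 include cells of the plasma cluster, with 247 to 599 Jchain UMIs and at most 1 S100a8 UMI. Among them were an Igkv6-15 cell with 87 UMIs and an Igkv1-110 cell with 29 UMIs of that segment. The change is thus not that of the 7 cells alone.

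A further 3 aged plasma gate cells carried Igkv14-111 (5 to 7 UMIs of it), with Ighv5-9 in 1, Ighv2-9-1 in another and no Ighv UMI in the third. They had 9 to 15 Jchain UMIs, against a maximum of 705 in the aged gate, and all 3 lay in the B-1-like cluster. The only aged cell led by Ighm or Ighd, a lambda cell with 91 such UMIs, carried 2 UMIs of Ighv12-3 and lay in the B-1-like cluster as well.

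Clusters of gate cells were made without any immunoglobulin, T-cell receptor, haemoglobin or mitochondrial gene, so segment use played no part in them. Of 12 clusters, 1 had all 8 B-1 markers (Bhlhe41, Zbtb32, Cd5, Spn, Plscr1, Ahnak, Pstpip2 and Itgb1) more than 2-fold above the other cells and is called B-1-like; S100a6, Lmna and Atf3 also led it, along with Cd9, a marker listed for marginal zone B cells, and Fcrl5, one listed for age-associated B cells. By the same 2-fold rule this cluster also had 4 of 7 age-associated, 2 of 6 marginal zone and 2 of 5 germinal centre B markers. Of 9 plasma markers it had 1, and of 4 plasmacytoid dendritic markers 1. It held 212 aged+AA, 264 aged and 95 young B gate cells. Another with 4 of 5 transitional B markers is called transitional-like (233, 400 and 161 cells). The largest clusters, led by Cd83, Nr4a1, Fos and Jun or by library-specific genes, came almost whole from single libraries and stay unnamed.

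Ighv11-2, the heavy chain segment known from B-1 cells, was concentrated in the B-1-like cells of each library. It made up 6 of 50 Ighv UMIs in aged+AA (12.0%), 7 of 81 in aged (8.64%) and 8 of 56 in young B-1-like cells (14.3%). In the other B gate cells it made up 2 of 995 (0.201%), 1 of 968 (0.103%) and 5 of 953 Ighv UMIs (0.525%). These UMIs came from only 3, 3 and 5 B-1-like cells and from 2, 1 and 4 other cells. Over the 3 libraries, 21 of its 29 UMIs (72.4%, 52.8 to 87.3%) lay in the B-1-like cells, which held 6.03% of all Ighv UMIs and were 4.97% of B gate cells. Counted by cells, 11 of 571 B-1-like cells (1.93%, 0.966 to 3.42%) held it, against 7 of 10926 others (0.0641%).

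Igkv14-126, its light chain partner, followed less closely. It made up 3 of 99 Igkv UMIs in aged+AA (3.03%), 2 of 218 in aged (0.917%) and 10 of 83 in young B-1-like cells (12.0%), and 0.514%, 0.883% and 1.13% of Igkv UMIs in the other cells. The aged value in B-1-like cells lay within the counting error of the aged value in the others (0.111 to 3.28% against 0.457 to 1.54%). Over the 3 libraries 15 of its 48 UMIs (31.2%, 18.7 to 46.3%) lay in the B-1-like cells, which held 9.17% of all Igkv UMIs. Igkv4-91 had 5 of 16 UMIs there, and Ighv12-3 0 of 6 among B gate cells, although the aged plasma gate cell with 2 Ighv12-3 UMIs belongs to the same cluster. The leading segments of the whole gate were not concentrated there: Ighv5-4 had 5 of 130 UMIs (3.85%) and Igkv12-44 25 of 310 (8.06%) in B-1-like cells.

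**Figure D5:**
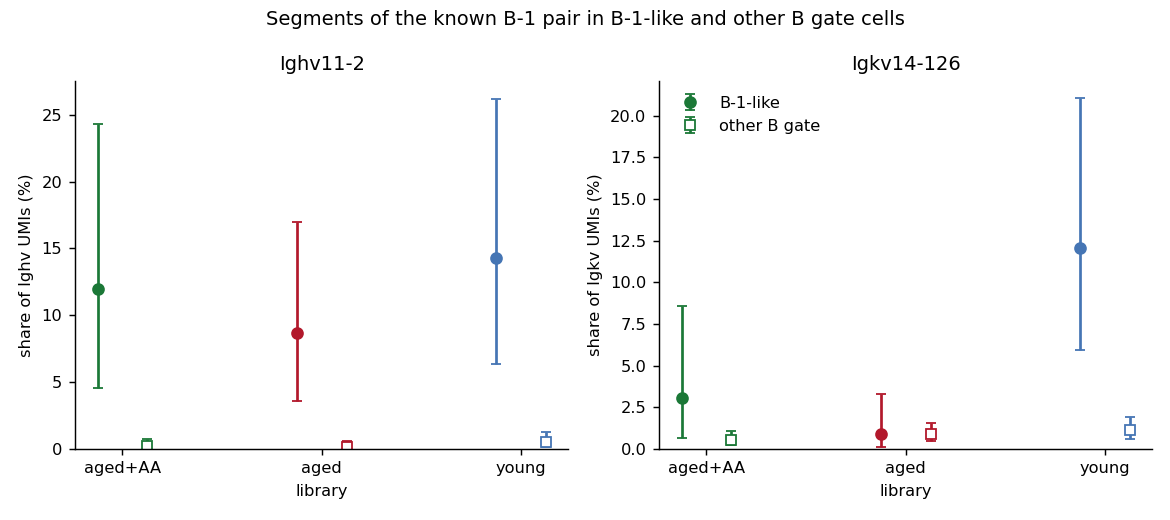
Share of Ighv UMIs from Ighv11-2 and of Igkv UMIs from Igkv14-126, in percent with exact 95% binomial intervals, in B-1-like and other B gate cells of the aged+AA, aged and young libraries. Ighv11-2 reaches 8.64% to 14.3% in B-1-like cells and stays below 0.6% in the others, while Igkv14-126 is clearly apart only in the young library.

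The known B-1 pair also met in single cells. Among gate cells in which both an Ighv and an Igkv segment could be read from 1 UMI on, 5 of 11 Ighv11-2 cells held Igkv14-126 (45.5%, 16.7 to 76.6%), 2 of 4 in aged+AA, 1 of 3 in aged and 2 of 4 in young. Of 725 cells with another Ighv segment, 6 held Igkv14-126 (0.828%). From 2 UMIs on, 1 cell with Ighv11-2 was left, and it held Igkv14-126. No cell with Ighv12-3 had a readable Igkv segment, so the pair with Igkv4-91 could not be looked at. Other pairs recurred in at most 3 B gate cells of a library: Ighv2-5 with Igkv1-117 in 3 aged cells, and Ighv1-26 with Igkv1-135, Ighv1-81 with Igkv10-96 and Ighv6-3 with Igkv1-135 in 3 young cells each. In all, 208 aged+AA, 228 aged and 257 young B gate cells with both chains held 199, 213 and 240 different pairs.

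Within the B-1-like cells Igkv was detected in 30.7% of aged+AA, 46.2% of aged and 50.5% of young cells and Ighv in 18.4%, 22.0% and 42.1%, at median depths of 5392, 5957.5 and 6884 UMIs. In transitional-like cells the Igkv share was 32.2%, 35.0% and 52.2%, and the Ighv share 21.5%, 22.5% and 30.4%, at 3732, 3106 and 3694 UMIs. The order of detection was thus the same in both named classes as in the whole B gate, at unequal depths. For Igkv, the intervals of aged and young B-1-like cells overlapped (40.1 to 52.4% and 40.1 to 60.9%). The Igkv level in B-1-like cells had another order, with 0.727 UMIs per 10000 in aged+AA, 1.27 in aged and 1.14 in young cells. The Ighv level in B-1-like cells and both levels in transitional-like cells kept the order of the whole B gate. Over UMIs, the effective number of Igkv segments was 33.5 in aged+AA, 26.0 in aged and 16.1 in young B-1-like cells, and 36.1, 33.7 and 18.1 in transitional-like cells. For Ighv it differed little in B-1-like cells (26.1, 25.9 and 24.4) and was highest in aged transitional-like cells (33.5, 53.0 and 24.9). These numbers have no interval, and several UMIs of a segment in 1 cell lower them. In B-1-like cells the Igkv UMIs were 99, 218 and 83, from 65, 122 and 48 cells. Igkv1-135 led the young cells of both classes, with 14 of 83 UMIs in 7 B-1-like cells and 23 of 137 UMIs in 15 transitional-like cells. At cluster resolution 0.5 it still led the young transitional-like cells (19 of 100 UMIs). The 49 young B-1-like cells at that resolution were led by Igkv14-126, with 10 of 46 UMIs in 5 cells. In aged+AA B-1-like cells the leading segment, Igkv6-25, owed its 10 UMIs to 1 cell, and in aged B-1-like cells Igkv1-117 had 24 UMIs in 11 cells, with 9 of them in 1 cell.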

How the data were processed

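Raw 10x Genomics 3′ count matrices were deposited by the authors, with 1 value (a UMI count, not normalized) for each gene and barcode. Cell Ranger, Seurat version 3.1.0 and the genome build mm10 are named in the submitters' processing notes; treatment of reads that fit several genes and the strand setting are not given in the sources used here. Per library, barcodes with more UMIs than the 99th percentile of the top 5000 divided by 10, and those that differed from free RNA (barcode ranks 45001 to 90000; 10000 draws, false discovery rate 0.01, at least 500 UMIs), were called cells. Of these, cells under 250 genes or over 10% mitochondrial UMIs were left out, and predicted doublets (Scrublet in scanpy 1.11.5, 3.99% to 4.15%) were removed. Kept cells had a median of 4075 (aged+AA), 3609 (aged) and 4457 UMIs (young); total UMIs were 80424480, 94944551 and 64496639.

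T cells had at least 2 Cd3 UMIs and no Cd79a UMI, and myeloid cells at least 5 Lyz2 UMIs and no Cd79a or Cd3 UMI. Clusters used log-normalised counts, 2000 variable genes, 30 components, 15 neighbours and Leiden resolution 1 (igraph 0.11.9). Analyses used Python 3.11.15, numpy 2.4.6, scipy 1.17.1 and pandas 2.3.3. The 2-fold count over genes and the effective number were tested on simulated data, and the assignment of cells to segments was not. Depth sets the precision: intervals cover counting error only, and UMIs of 1 cell are not independent draws of segments. No value belonged to a sample of another series. Named were the 6 most used segments of each locus in each library, the 3 most used in the plasma gate, those with the largest ratios, and a fixed list with known B-1 segments and pathway genes; others named (Igkv14-111, Igkv6-25, Igkv10-96, Ighv2-5 and the partners of Igkv6-15 among them) were chosen after their values were seen. The segments and lists were chosen with earlier results of these data known. Alternatives were other assignment limits, thinning, cell filters, scalings and cluster resolution.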

Additional observations from a re-analysis of the deposited data

How the results depend on the processing

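No paired analysis was possible because each group has 1 library, which also allows no leave-one-out value. No detection, level or Igha ratio between libraries crossed 1 under any alternative run, but orders of usage and evenness did change. For aged+AA against aged, the order turned for Ighv5-4 in thinned cells, for Igkv12-44 from 4 UMIs, in thinned cells and over summed UMIs, and for Igkv evenness under the same 3 settings. Against young, the order of aged turned for Igkv evenness, Igkv12-44 and Ighv5-4 and that of aged+AA for Igkv evenness and Ighv5-4, each under at least 1 setting, and Ighv evenness turned in thinned cells (78 in aged, 105 in young). Values that moved past counting error are these. With at most 5% mitochondrial UMIs (3033 aged+AA, 3916 aged and 667 young B gate cells), 0 Igkv segments were past 2-fold for aged+AA over aged and for aged+AA over young; detection of Igkv was 0.807 (aged over young) and 0.706 (aged+AA over young), its level 0.836 and 0.658, and Igha 0.934 (aged+AA over aged), 29.5 (aged over young) and 27.6 (aged+AA over young). Assigned from 1 UMI, the effective number of Igkv segments was 38.5 in aged+AA and 38.6 in aged, and Ighv5-4 took 4.44% of aged+AA cells. From 4 UMIs, Igkv12-44 took 0%, 28.6% and 21.4% of aged+AA, aged and young cells and Ighv5-4 66.7%, 0% and 0%, and the effective number was 6.07 (Igkv, aged), 9.10 (Igkv, young) and 3.00 (Ighv, aged+AA). In cells thinned to 1000 UMIs it was 15.1 (Igkv, aged) and 105 (Ighv, young), Igkv12-44 took 17.9% of aged cells, and Ighv5-4 0% of aged+AA and 15.4% of aged cells. Over summed UMIs it was 35.9 (Igkv, aged+AA).

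Chosen after seeing the data, thinning gave detection ratios of 0.732 (Igkv, aged+AA over aged), 0.559 (Igkv, aged+AA over young), 0.576 (Ighv, aged over young) and 0.471 (Ighv, aged+AA over young), and level ratios of 0.707 (Igkv, aged+AA over aged), 0.747 (Igkv, aged over young) and 0.466 (Ighv, aged+AA over young). Leaving haemoglobin genes out of the total, also chosen afterwards, gave level ratios of 0.723 (Igkv, aged+AA over aged), 0.743 (Igkv, aged over young) and 0.778 (Ighv, aged+AA over aged). So were the limits on haemoglobin UMIs, 1% in the B gate and 10% in the plasma gate. Median-of-ratios scaling gave level ratios for Igkv of 0.610 (aged over young) and 0.492 (aged+AA over young), and for Ighv of 0.533 and 0.462. The number of Igkv segments past 2-fold was 9, 5 and 13 with no filter and 3, 10 and 14 from CPM levels (aged+AA over aged, aged over young, aged+AA over young), against 1, 0 and 1. At resolution 0.5, Igkv12-44 had 4.19% of its UMIs in B-1-like cells. The causes were not tested. Of the other values, all 12 along the locus, all 12 for second segments and all 4 for pairing stayed within counting error. So did 30 of 36 for detection and 68 of 76 for evenness. Values along the locus covered only the middle Igkv run as a share of assigned cells (0%, 0.535% and 1.72% in aged+AA, aged and young cells). The UMI shares of the runs given above were not varied. Pairing started from 1 Ighv11-2 cell (100%, 2.5 to 100%), so its values could hardly leave that interval and say little about the pair. Depth limits the segment counts: at most 187 cells of a library were assigned in a locus, and the young plasma gate had 2 cells.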
